A study of Mus musculus with 12 samples.

Results

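The genes described here encode the proteins of the cytosolic ribosome in mouse. They were chosen by symbol: every gene whose symbol begins with Rpl or Rps and a digit, and Rplp0, Rplp1, Rplp2 and Rpsa, leaving out the S6 kinases and the genes Rps19bp1 and Rpl7l1. The rule found 87 of the 16570 genes in the table, 33 of the small 40S subunit and 54 of the large 60S subunit. Measured values played no part in it. Rps30 is not among them, because it is made as a fusion protein from Fau, and neither is Rack1, a 40S protein. Fau and Rack1 are described separately. A few of the 87 are not standard ribosome components but paralogues (Rpl22l1, Rpl3l, Rpl36al, Rpl39l, Rps27l), retrogene copies (Rps27rt, Rpl37rt, Rpl32l) or genes named as pseudogenes (Rpl31-ps12, Rpl34-ps1).

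The cytosolic ribosome translates mRNA into protein. The small subunit holds the mRNA and reads its codons, and the large subunit joins the amino acids and passes the growing chain through an exit tunnel. Most ribosomal proteins are needed in equal numbers. The mRNAs of ribosomal proteins are among the most abundant of a cell. Most of these mRNAs begin with a run of pyrimidines, the 5′ terminal oligopyrimidine tract or TOP, through which mTORC1 and LARP1 regulate their translation. Ribosomal RNA transcription and ribosome assembly are stimulated by growth signals and MYC. Osteoclasts are large, multinucleate bone-resorbing cells that macrophages form under the cytokine RANKL.

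The cells were bone marrow-derived macrophages of C57BL/6J mice of 6 to 8 weeks. All 4 groups received M-CSF, the growth factor that keeps macrophages alive, at 50 ng/mL for 2 days. The M-CSF group received nothing else, the RANKL group also received RANKL at 100 ng/mL, and the remaining groups received M-CSF, RANKL and 1 µM of either BMS309403, which is used to block the lipid chaperone FABP4, or RHC80267, which is used to block diacylglycerol lipase. There were 3 libraries per group. Whether they came from separate cultures or animals is not stated in the labels. The p-values therefore reflect no more than the spread among these libraries, possibly a technical one. The treatment text writes RANK for RANKL in both inhibitor groups, and the growth text describes a RANKL culture of 4 days where the treatment and design texts give 2. No inhibitor was given without RANKL, and no vehicle is named.

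The 12 libraries held between 17760844 and 18344989 expected counts each, so they were of similar depth. The summed level of 8 macrophage markers was 31331 to 31829 CPM (counts normalised to library size with TMM factors) in the M-CSF libraries, 24817 to 26467 in the RANKL libraries, 27467 to 29064 under BMS309403 and 19903 to 20949 under RHC80267. In the same order, that of 9 osteoclast markers was 108 to 132, 8223 to 10205, 6714 to 7572 and 16136 to 18258 CPM, and that of 8 neutrophil markers was 1091 to 1579, 1451 to 1659, 1497 to 1615 and 692 to 1034 CPM. Markers of B cells summed to at most 15.3 CPM, and those of erythroid cells to at most 1.21 CPM. For T or NK cells the sum stayed at or below 1.05 CPM, with Ncr1 at 0 in 3 groups. Mast cell or basophil markers summed to at most 11.3 CPM and dendritic cell markers to 19.7 to 36.5 CPM. Stromal markers summed to 13.2 to 54.7 CPM with RHC80267 and at most 12.2 CPM in the other groups, and 3 of the 5 tested were higher with RHC80267 than with RANKL. The libraries thus expressed macrophage genes in all groups and osteoclast genes with RANKL, and both sets of markers moved with every comparison given here. Their part in the ribosomal protein results was not tested. In bulk samples fewer cells of a type and less RNA per cell cannot be told apart.

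Ribosomal protein genes took 3.81 ± 0.12% of the counts with M-CSF (SD, n = 3, as for all means here), 4.51 ± 0.0807% with RANKL, 4.45 ± 0.132% with BMS309403 and 4.64 ± 0.125% with RHC80267. The lowest library with RANKL, at 4.42%, was above the highest M-CSF library, at 3.89%, and the ranges of the 3 groups with RANKL overlapped. The 40S genes took 1.50 ± 0.0581% with M-CSF and 1.78 ± 0.0373% with RANKL. For the 60S genes the shares were 2.31 ± 0.0622% and 2.72 ± 0.0436%. The ratio of 60S to 40S counts was 1.54 ± 0.0202, 1.53 ± 0.0082, 1.54 ± 0.0145 and 1.52 ± 0.00396 in the order of the groups above, a difference smaller than the spread between the M-CSF libraries. Per transcript length the share was larger, because these mRNAs are short: 15.8 ± 0.227% of all TPM (the deposited transcript level per length) with M-CSF, 18.0 ± 0.303% with RANKL, 17.5 ± 0.416% with BMS309403 and 18.4 ± 0.402% with RHC80267.

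**Figure D1:**
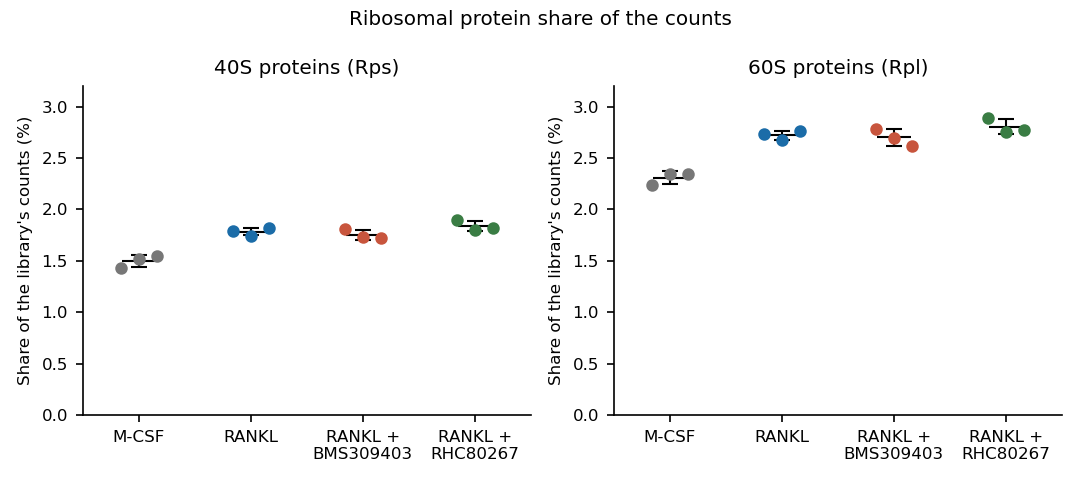
Share of each library's expected counts (%) in 33 genes of 40S and 54 genes of 60S ribosomal proteins, with points for libraries and bars for the mean ± SD of 3. In both panels the M-CSF libraries lie below all libraries with RANKL, and the 3 groups with RANKL overlap.

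Ranked per transcript length by the mean TPM over the 12 libraries, the median ribosomal protein gene stood at 1995 TPM, and 66 of the 87 exceeded 1000 TPM. Rps27 (5129 TPM), Rpl41 (4847), Rpl10 (4658), Rpl23a (4403), Rps29 (4280), Rpl35 (4152) and Rps12 (3888) were highest. Rpl41 encodes the shortest protein of the ribosome. The paralogues Rpl22l1 (550 TPM) and Rps27l (542) stood well below this, and Rpl39l was at 1.42 TPM. Some core genes were also low: Rps20 at 161, Rpl22 at 157, Rps15a at 103 and Rps6 at 36.7 TPM. How the reads of Rps6 were divided bears on its value and is described below. The lowest were the retrogenes Rpl32l (32.0), Rps27rt (7.71) and Rpl37rt (6.54), and Rpl34-ps1 (0.309), Rpl3l (0.167), a paralogue known from striated muscle, and Rpl31-ps12 (0.0417). The last 3 did not pass the filter on low counts, so 84 genes were tested, 33 of 40S and 51 of 60S. Of these, 79 had a mean of at least 50 CPM, and statements on spread refer to these 79.

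The first question was how macrophages under M-CSF alone differ from those that also received RANKL. Ribosomal protein genes rose together and by a small amount. Of the 84 tested, 64 (76.2%) were higher with RANKL and 0 lower (edgeR's quasi-likelihood test, Benjamini-Hochberg adjusted p below 0.05), while 31.4% of all genes tested were higher, 29.8% lower and 61.2% called in either direction. At an unadjusted p below 0.05, 65 were higher and 0 lower; limma-voom called 65 and 0, and DESeq2 63 and 0. The median log2 fold change was 0.21, a rise of 15.9%, with the middle 50% of genes from 0.14 to 0.29, while that of all genes was 0.00. Of the 84 estimates 83 were positive, the exception being Rps29. In 64 genes, 62 of them called, all RANKL libraries were above all M-CSF libraries, as in 33.4% of all genes, and 0 lay below in every library, as did 32.2% of all genes. Of the 79 genes of at least 50 CPM, 62 were called, with rises from 8.80% (Rpl29) to 43.4% (Rpl22l1).

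Both subunits took part. Of the 40S genes 27 of 33 were higher, with a median log2 fold change of 0.22, and of the 60S genes 37 of 51, with a median of 0.21. The 79 genes also lay close to one another: the SD of their log2 fold changes was 0.108, against 0.64 for 4226 other genes of at least 50 CPM, whose median was −0.03. In the authors' deposited table, 63 members had a q-value below 0.05 and a higher level with RANKL, and 0 a lower one. For the comparisons given below, the authors' deposited table had 0 higher and 0 lower for BMS309403 against RANKL, 3 and 5 for RHC80267 against RANKL, and 3 and 18 for RHC80267 against BMS309403.

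**Figure D2:**
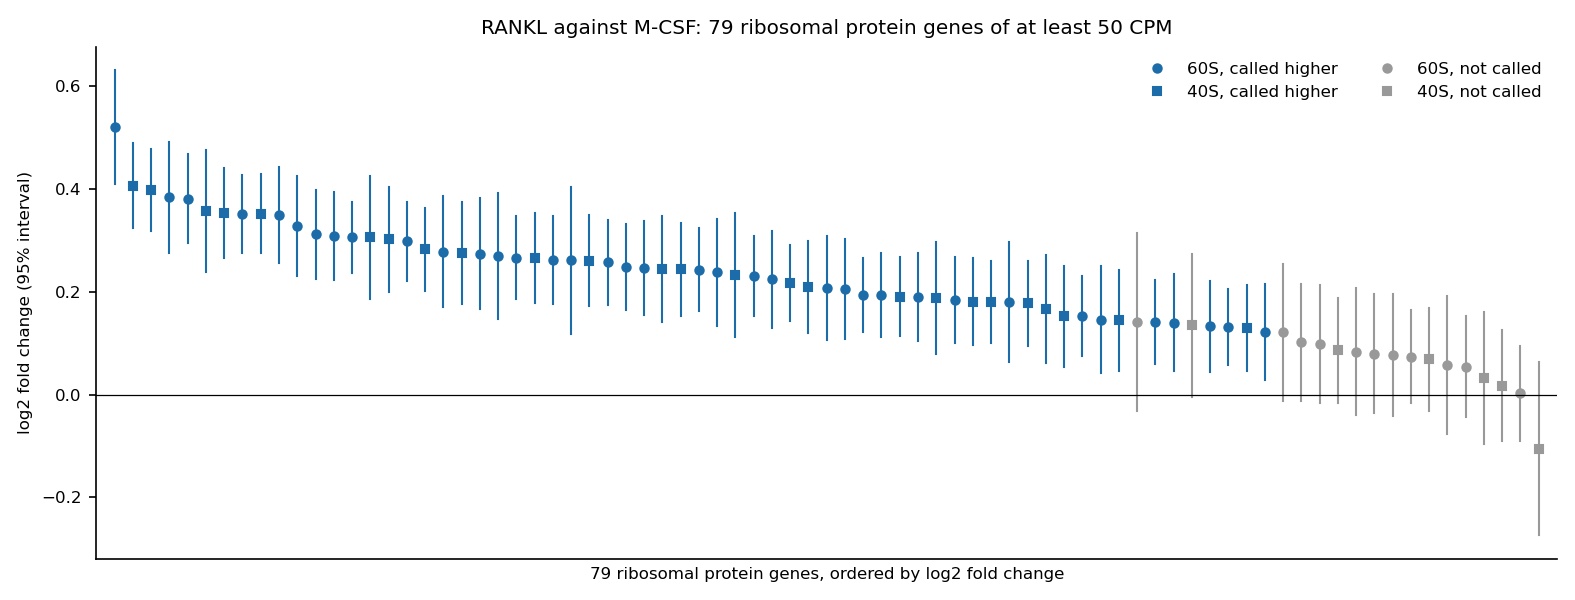
log2 fold change of RANKL against M-CSF with its 95% interval for 79 ribosomal protein genes of at least 50 CPM, ordered by size; squares are 40S and circles 60S genes, blue where called higher and grey where not. The 62 called genes lie between 0.12 and 0.52, both subunits are spread along the whole order, and Rps29 alone has an estimate below 0.

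In the large subunit, all 4 genes of the P stalk, the flexible arm that recruits elongation factors, rose. Rplp0 (gene 11837, chr5:115559467-115563729), which anchors the stalk, was at 1376, 1357 and 1392 CPM with M-CSF and 1695, 1726 and 1680 CPM with RANKL. The groups did not overlap, and the log2 fold change was 0.31 ± 0.03 (SE, adjusted p = 5.31e-08). The stalk proteins Rplp1 and Rplp2 rose by 0.26 and 0.27 on the log2 scale and Rpl12, at the stalk base, by 0.33. Near the peptidyl transferase centre, Rpl3 (gene 27367, chr15:80077781-80083406) was at 945, 984 and 963 CPM with M-CSF and 1209, 1209 and 1271 CPM with RANKL, again without overlap (log2 fold change 0.35 ± 0.04, adjusted p = 2.37e-08). Rpl8, its neighbour in that region, rose by 0.27. Rpl10 (gene 110954, chrX:74270816-74273135), one of the last proteins to join the 60S subunit, differed from both. Its levels were 1508, 1456 and 1392 CPM with M-CSF and 1590, 1558 and 1374 CPM with RANKL, and RANKL replicate 3 was the lowest of the 6 libraries. The log2 fold change of Rpl10 was 0.05 ± 0.05 (adjusted p = 0.335), and without RANKL replicate 3 it was 0.12 and called (adjusted p = 0.0233).

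Rpl5 and Rpl11 bind 5S rRNA together and, outside the ribosome, the p53 regulator MDM2. Rpl5 was called higher and Rpl11 was not. Rpl5 (gene 100503670, chr5:107900508-107909005) was at 727, 774 and 756 CPM with M-CSF and 812, 845 and 851 CPM with RANKL, a rise of 0.15 ± 0.04 (adjusted p = 0.00126). Rpl11 (gene 67025, chr4:136049354-136053393) was at 433, 456 and 483 CPM with M-CSF and 461, 437 and 475 CPM with RANKL, fully overlapping, with a log2 fold change of 0.00 (95% interval −0.09 to 0.10, adjusted p = 0.968). The difference between both genes was not tested. Of 9 genes at the peptide tunnel and its exit, 7 were higher (median 0.26): Rpl23a, at the exit, by 0.38, Rpl4, whose loop lines the tunnel, by 0.31 and Rpl39 by 0.28. Rpl26 and Rpl31 had estimates of 0.08 and 0.10 and were not called. Of 18 universally conserved 60S proteins 14 were higher.

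In the small subunit, Rpsa (gene 16785, chr9:120127766-120132369), near the mRNA exit, was at 1001, 1066 and 1043 CPM with M-CSF and 1279, 1238 and 1267 CPM with RANKL, with no overlap (log2 fold change 0.28 ± 0.04, adjusted p = 1.64e-06). With it, Rps14 and Rps26 rose by 0.19 and 0.35, and Rps28, at 0.13, was not called. At the mRNA entry, Rps2, Rps3 and Rps9 rose by 0.36, 0.14 and 0.18. At the decoding site, Rps15 rose by 0.18 and Rps23, at 0.09, was not called. Of 15 universally conserved 40S proteins 12 were higher. Rps4x (gene 20102, chrX:102184941-102189391), an X-linked protein of the 40S body, was at 994, 961 and 978 CPM with M-CSF and 1084, 1018 and 1108 CPM with RANKL (log2 fold change 0.13 ± 0.04, adjusted p = 0.00796). Rps27a, made as a fusion with ubiquitin, rose by 0.35.

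Large rises of well-expressed genes occurred in both subunits. Rps12 (gene 20042, chr10:23785183-23787383) was at 412, 448 and 426 CPM with M-CSF and 548, 565 and 591 CPM with RANKL (log2 fold change 0.41 ± 0.04, adjusted p = 1.04e-08). Every RANKL library was above every M-CSF library. Rpl36a rose by 0.38, and Rpl14 by 0.35. Of 11 genes in which mutations cause Diamond-Blackfan anaemia, an inherited failure of red cell production, 9 were higher, with a median of 0.21, as over all 84. The exceptions were Rpl11 and Rpl26.

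Other called members lay between these. In the small subunit, Rps18 rose by 0.31 on the log2 scale, Rps19 by 0.30, Rps13 by 0.26, Rps7 by 0.24, Rps21 by 0.23, Rps10 by 0.21, Rps16 by 0.19 and Rps3a1 by 0.18. Rps19 is the gene most often mutated in Diamond-Blackfan anaemia. In the large subunit, Rpl13a rose by 0.31, Rpl27a by 0.30, Rpl27 by 0.26, Rpl10a by 0.25, Rpl15 by 0.23, Rpl21 by 0.22, Rpl28 by 0.21, Rpl7a, Rpl17 and Rpl24 by 0.19, Rpl13 by 0.18, Rpl32 by 0.15 and Rpl9 by 0.13. Larger and smaller rises thus occurred in both subunits.

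The 17 well-expressed genes that were not called included Rpl10, Rpl11, Rpl23, Rpl26, Rpl30, Rpl31, Rpl34, Rpl36, Rpl37, Rpl37a, Rpl38, Rps23, Rps27, Rps27l, Rps28 and Rps29. Of the 17, 12 had an absolute log2 fold change below 0.1. Their M-CSF libraries were more spread than those of the 62 called genes, with a median coefficient of variation of 9.90% against 4.23%. A call itself depends on the spread, so such a difference is partly built into the split. M-CSF replicate 1 was the lowest of its group in 16 of these 17 genes and in 45 of the 62 called ones. Rps29 (gene 20090, chr12:69157722-69159186), a zinc-binding protein of the 40S head, shows this spread: 220, 309 and 266 CPM with M-CSF and 218, 250 and 271 CPM with RANKL. Its log2 fold change was −0.11 ± 0.08 (adjusted p = 0.272), and the interval from −0.27 to 0.06 leaves out a rise as large as the median of the 84 genes. Rpl38, a regulator of Hox mRNA translation in embryos, had 76.6, 106 and 103 CPM with M-CSF and 101, 97.9 and 117 CPM with RANKL, so the single low M-CSF library overlapped no RANKL library and the remaining pair did.

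Ribosomal protein genes also shifted together between libraries of 1 group. The lowest and highest libraries were counted over the members alone, so these counts do not show how other genes moved. Of the 79 genes, 61 were lowest in M-CSF replicate 1, 63 were highest in RANKL replicate 3, 56 were highest in BMS309403 replicate 1 and 67 were highest in RHC80267 replicate 1. That library also held the most of the stromal marker Col1a1, at 21.1 CPM against 6.10 and 4.72 CPM in the rest of its group, and the part of these cells in the members' levels was not tested. In the M-CSF group the median coefficient of variation was 4.41% for the 79 genes and 3.15% for the 4226 others, in the RANKL group 3.05% and 3.12%, in the BMS309403 group 3.93% and 3.32%, and in the RHC80267 group 3.21% and 2.87%. Without M-CSF replicate 1, 57 genes were higher with RANKL and 1, Rps29, lower (−0.23, adjusted p = 0.00637), and the median was 0.18; without M-CSF replicate 3, 72 were higher and the median was 0.23. Of the 64 genes called, 56 kept their call under every alternative run on them.

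**Figure D3:**
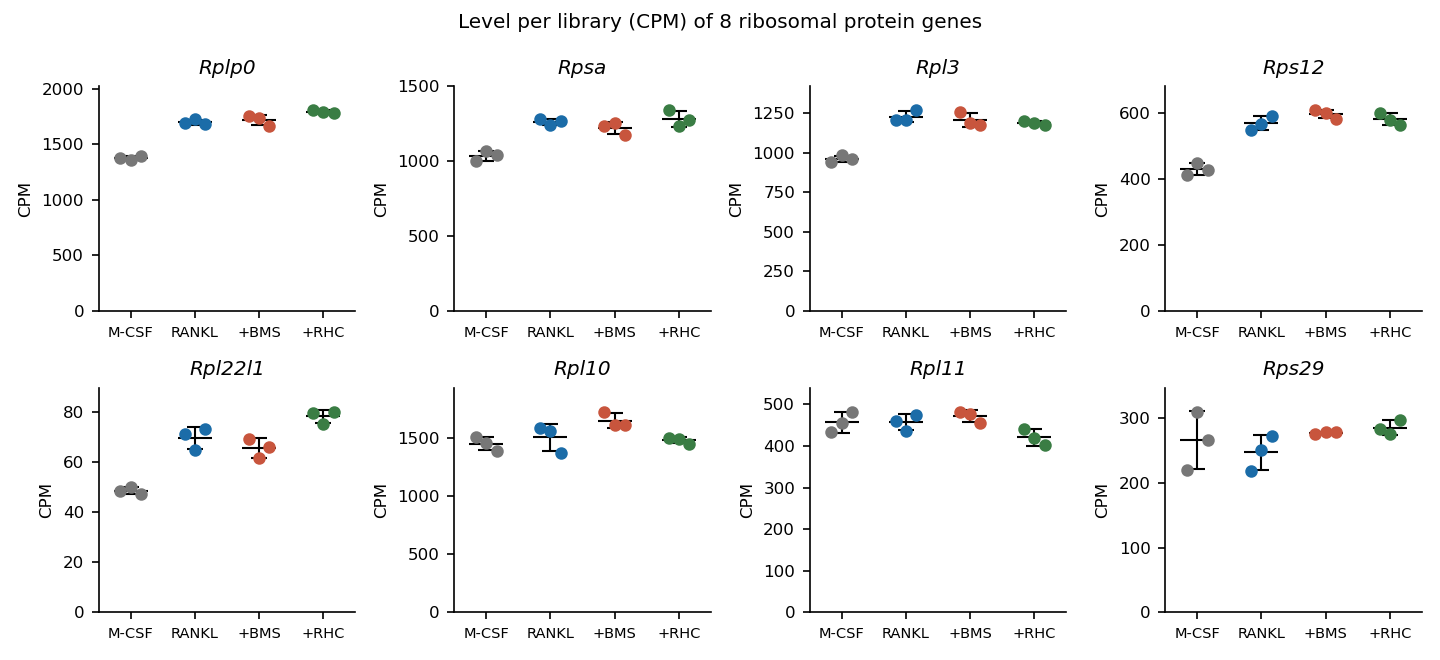
Level in CPM of 8 ribosomal protein genes, with points for libraries and bars for the mean ± SD of 3; +BMS and +RHC are RANKL with BMS309403 and with RHC80267. Rplp0, Rpsa, Rpl3, Rps12 and Rpl22l1 are lower in all M-CSF libraries than in all RANKL libraries, and Rpl10, Rpl11 and Rps29 overlap.

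The paralogues differed from one another. Rpl22l1 (gene 68028, chr3:28805508-28807424), a paralogue of Rpl22, had the largest rise of the 79 genes, from 48.5, 50.2 and 47.2 CPM with M-CSF to 71.2, 64.9 and 73.1 CPM with RANKL. The groups did not overlap, and the log2 fold change was 0.52 ± 0.05 (adjusted p = 2.09e-08), with an interval from 0.41 to 0.63. Its core partner Rpl22 rose by 0.26 ± 0.04 (adjusted p = 8.23e-06), from 173, 183 and 171 to 208, 210 and 212 CPM, with an interval from 0.17 to 0.34. Rpl36a and Rpl36al rose by 0.38 and 0.24. Rps27l (68.4, 71.0 and 75.9 CPM with M-CSF, 74.1, 71.2 and 80.5 CPM with RANKL) and Rps27 (202, 207 and 203, then 206, 193 and 228 CPM) were not called, at 0.07 and 0.03. Rpl39l (gene 68172, chr16:10170197-10174911), best known from the testis, had expected counts of only 3, 6 and 0 with M-CSF and 7, 8 and 7 with RANKL and was not called (adjusted p = 0.0768), while Rpl39 rose by 0.28. Rpl39l was called higher by limma-voom (1.78, adjusted p = 0.0181) and without M-CSF replicate 2 (2.17, adjusted p = 0.0167).

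The start of the coding sequences shows how far reads can be assigned to 1 paralogue. Bases that differ within a pair are in capitals, positions are counted from 1 at the A of the start codon, and the sequences are those of GENCODE vM21 transcripts. Rpl39 and Rpl39l are identical at 133 of 156 coding bases, Rpl36a and Rpl36al at 282 of 321, Rps27 and Rps27l at 194 of 255, and Rpl22 and Rpl22l1 at 196 of the 369 bases compared without gaps. The first 60 coding bases of the first 3 pairs read:
Rpl39: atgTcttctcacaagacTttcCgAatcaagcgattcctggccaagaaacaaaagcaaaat
Rpl39l: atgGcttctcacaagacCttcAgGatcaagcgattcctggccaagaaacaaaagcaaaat
Rpl36a: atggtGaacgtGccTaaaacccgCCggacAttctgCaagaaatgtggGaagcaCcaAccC
Rpl36al: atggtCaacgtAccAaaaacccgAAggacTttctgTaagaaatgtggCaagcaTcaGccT
Rps27: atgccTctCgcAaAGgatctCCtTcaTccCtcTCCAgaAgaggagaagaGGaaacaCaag
Rps27l: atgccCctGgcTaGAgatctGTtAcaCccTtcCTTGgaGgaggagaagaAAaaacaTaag
These pairs differ at 4, 11 and 18 of the 60 bases shown. In the deposited table Rpl39, Rpl39l, Rpl36a, Rpl36al, Rps27l, Rpl22 and Rpl22l1 have whole counts in all 12 libraries, so their counts show no division of reads.

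Other members did share reads. Expected counts are not whole where a read fits more than 1 gene and is divided between them. Of the 87 genes, 70 had whole counts in every library, and 15 had counts that were not whole in at least 3 libraries. For 12 of these, adding the count of a single other gene gave whole numbers (to within 0.015) in every such library. The partners included Rps27 and Rps27rt, Rpl37 and Rpl37rt, Rpl34 and Rpl34-ps1, Rps6 and the gene LOC105244208, Rplp2 and Wdr89, Rpl5 and Dipk1a, Rpl19 and Cacnb1, and Rps25 and Ccdc84. Except for Rps6, the core gene kept between 95.7% (Rpl5) and 100% of the sum. No single partner was found for Rpl23, Rpl31 and Rps23.

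Rps6, the 40S protein that S6 kinases phosphorylate, was the exception. Its partner LOC105244208 is the pseudogene Rps6-ps4 by gene identifier (105244208, RefSeq, GRCm38.p6, chr2:75190995-75191854), while Rps6 itself is at chr4:86854099-86857367. The transcript of Rps6-ps4 is identical to the Rps6 coding sequence at 750 of 750 bases, as shown by the start of both:
Rps6: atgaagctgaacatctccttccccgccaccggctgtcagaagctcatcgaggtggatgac
Rps6-ps4: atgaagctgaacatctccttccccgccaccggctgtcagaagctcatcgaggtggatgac
Only 128 of the 878 bases of the Rps6 transcript lie outside that identical stretch. The deposited count of Rps6 held 2.84% to 2.996% of the sum of both genes with M-CSF and 3.45% to 3.47% with RANKL, without overlap. It held 2.87% to 3.08% with BMS309403 and 2.92% to 3.39% with RHC80267.

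Taken alone, Rps6 rose from 21.5, 21.0 and 20.2 CPM with M-CSF to 32.5, 31.0 and 31.9 CPM with RANKL, a log2 fold change of 0.61 ± 0.06 (adjusted p = 1.43e-08). Summed with its partner the level was 717 ± 19.1 CPM with M-CSF and 920 ± 18.7 CPM with RANKL, a log2 fold change of 0.36 ± 0.04 (adjusted p = 3.78e-08). The sum was an alternative chosen after seeing the data. On the sum, Rps6 stood among Rps2, Rps26 and Rpl3, at 0.35 to 0.36, rather than above all well-expressed members.

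**Figure D4:**
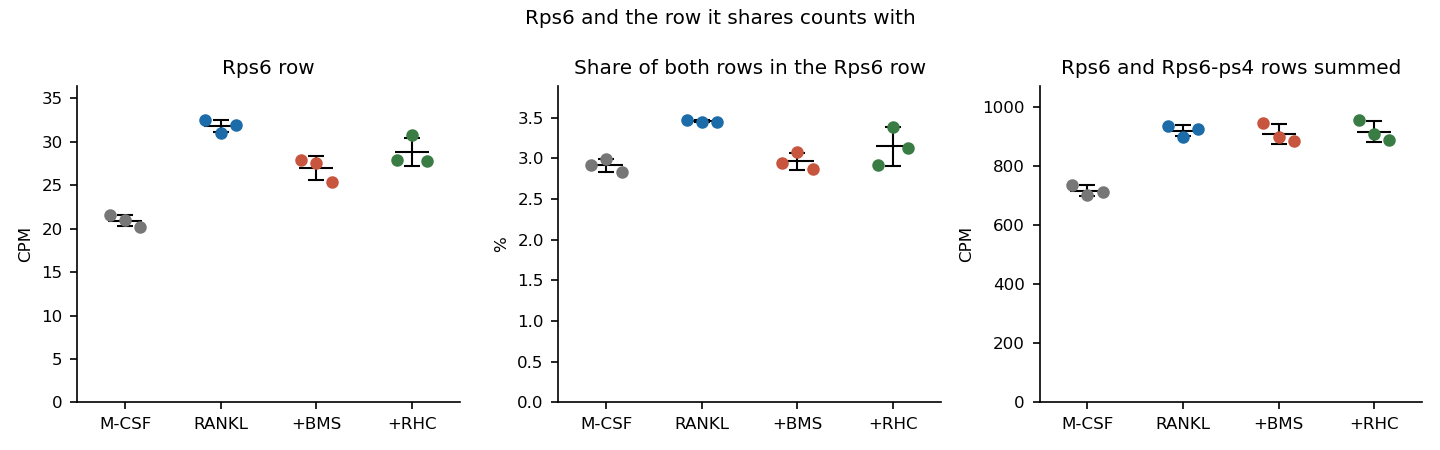
Level of Rps6 as deposited (CPM), the share (%) of the summed counts of Rps6 and Rps6-ps4 that was assigned to Rps6, and the summed level (CPM), with points for libraries and bars for the mean ± SD of 3. The deposited level and the share are highest with RANKL, and in the sum the 3 groups with RANKL overlap.

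For the retrogenes Rps27rt and Rpl37rt, expected counts were few and depend on the same division of reads. Rpl32l had whole counts in every library. Rps27rt is identical to Rps27 at 255 of 255 coding bases and had expected counts of 8, 0 and 0 with M-CSF and 17, 14 and 16 with RANKL, with a called rise (adjusted p = 0.00612) that DESeq2 did not call. Its share of the sum with Rps27 never exceeded 0.447%, and the sum of both had a log2 fold change of 0.04 ± 0.06 (adjusted p = 0.616). No fold is given for Rps27rt, since it would rest on libraries with no counts. Rpl37rt differs from Rpl37 at a single coding base, G249A, counted as above, shown here in the stretch from base 229 to base 288:
Rpl37: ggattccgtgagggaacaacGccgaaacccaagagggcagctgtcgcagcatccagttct
Rpl37rt: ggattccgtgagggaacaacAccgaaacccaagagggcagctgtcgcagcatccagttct
Neither gene was called with RANKL (log2 fold changes of 0.12 for Rpl37 and 0.02 for Rpl37rt).

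The members lie on 19 chromosomes, with 14 on chromosome 7 and 4 on X (Rps4x, Rpl10, Rpl36a and Rpl39). A position is given for 83 of them.

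The region around the transcription start was examined because members rose together and because the TOP tract lies there. RefSeq promoter windows of GRCm38.p6, 250 bases before to 50 bases after the start, were found for 66 of the 87 genes (78 windows). A run of at least 8 pyrimidines (C or T) that overlaps or lies within 5 bases of the start was present in 25 windows (32.1%), against 9.38% of 32851 windows of all genes. The windows below run from 30 bases before the start to 15 bases after it, with such a run in capitals. Shown first are members with the run, the largest well-expressed rise (Rpl22l1), Rpl14, Rps6 and Rpl35, and the uncalled Rps27 and Rpl38:
Rpl22l1: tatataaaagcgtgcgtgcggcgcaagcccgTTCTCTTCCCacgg
Rpl14: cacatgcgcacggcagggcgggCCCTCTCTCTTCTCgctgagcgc
Rps6: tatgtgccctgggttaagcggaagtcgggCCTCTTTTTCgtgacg
Rpl35: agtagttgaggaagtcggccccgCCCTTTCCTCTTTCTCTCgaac
Rps27: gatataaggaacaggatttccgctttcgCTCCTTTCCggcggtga
Rpl38: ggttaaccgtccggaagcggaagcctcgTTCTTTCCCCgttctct
They are at chr3:28805478-28805522 (plus strand), chr9:120571487-120571531 (plus), chr4:86857353-86857397 (minus), chr2:39005117-39005161 (minus), chr3:90213634-90213678 (minus) and chr11:114668550-114668594 (plus). Shown next are members without such a run in the annotated window, Rplp0 and Rps12, which rose, and Rpl10 and Rpl11, which were not called:
Rplp0: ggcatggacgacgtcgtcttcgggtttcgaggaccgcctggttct
Rps12: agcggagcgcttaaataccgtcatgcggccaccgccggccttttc
Rpl10: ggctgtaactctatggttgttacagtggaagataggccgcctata
Rpl11: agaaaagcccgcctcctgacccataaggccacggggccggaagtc
They are at chr5:115559437-115559481 (plus), chr10:23787195-23787239 (minus), chrX:74270786-74270830 (plus) and chr4:136053379-136053423 (minus). Both kinds of window occurred among genes that rose and genes that were not called.

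Of the 25 tested genes with a run, 20 were higher with RANKL (median log2 fold change 0.25), and of 39 tested genes with a window but no run, 28 were higher (median 0.18). The difference was not tested, and the annotated start may lie some bases from the one used in these cells. Among motifs searched on both strands of the 300 bases, CCGGAAG, the core of ETS factor sites, was in 34.6% of member windows and 8.86% of all windows, and CCCGCCC, an SP1-type GC box, in 43.6% and 25.6%. The E-box CACGTG, which MYC can bind, was in 10.3% and 7.15%, and TATAAA in 11.5% and 13.6%. Of the tested genes with CCGGAAG 18 of 26 were higher with RANKL, and of those with a window but no match 30 of 38. For CCCGCCC these counts were 23 of 29 and 25 of 35. For CACGTG they were 4 of 6 and 44 of 58, and for TATAAA 6 of 8 and 42 of 56. These differences were not tested. A match describes the sequence and shows no binding.

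Among ribosome genes outside the symbol rule, Rack1 rose with RANKL by 0.23 ± 0.04 (adjusted p = 2.83e-05). Fau, which carries Rps30, was at 440, 458 and 475 CPM with M-CSF and 477, 486 and 489 CPM with RANKL, without overlap, but was not called (0.08 ± 0.04, adjusted p = 0.0758). Of the proteins that make ribosomes, all 11 of the small nucleolar RNPs, which modify ribosomal RNA, were higher (median 0.53, highest 0.77). Among them were Nolc1 and Nop58 (0.61 and 0.62). Of 40 factors of 60S assembly 29 were higher (median 0.40), with Heatr3, the carrier of Rpl5 and Rpl11, at 1.01, and of 32 factors of 40S assembly 22 (median 0.25), with Rrp12 at 0.89. None of these 83 factors was lower. RNA polymerase I and its factors were mixed, with 5 of 12 higher, among them the subunit gene Polr1b (0.47), and 1 lower. Of 5 abundant nucleolar proteins 4 were higher, among them Npm1, nucleophosmin, by 0.34, and 1 was lower (−0.14).

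Among translation factors the counts differed by group. Of 8 elongation factor genes 7 were higher, among them Eef1g at 0.47 and Eif5a at 0.35. Of 13 subunits of initiation factor 3, 8 were higher and 5 not called, and of 20 other initiation factors 14 were higher and 1, Eif4a2, lower, with the cap-binding protein Eif4e at 0.59 and the helicase Eif4a1 at 0.44. Of 9 other mRNAs known to carry a TOP, 8 were higher, with the poly(A) binding protein Pabpc1 at 0.42 and Vim, which encodes the filament protein vimentin, at 1.24. In the list of mTORC1, LARP1, S6 kinases and MYC 6 of 17 were higher and 5 lower: Myc rose by 1.61, and of the inhibitors of Eif4e, Eif4ebp1 rose by 0.56 and Eif4ebp2 fell by 0.45. These counts stand beside 31.4% of all genes higher and 29.8% lower.

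BMS309403 with RANKL was compared with RANKL alone to ask what the FABP4 inhibitor changes during RANKL treatment. It left the ribosomal protein genes close to their levels with RANKL. Of the 84 genes 0 were higher and 1, Rps6, was lower by edgeR's quasi-likelihood test, where 3.49% of all genes were higher, 3.74% lower and 7.23% either. At an unadjusted p below 0.05, 4 were higher and 1 lower, and DESeq2 and limma-voom each called 0 higher and 1 lower. In 6 genes all libraries with BMS309403 were above all RANKL libraries and in 2 below them, as in 11.2% and 12% of all genes. The median log2 fold change was 0.02, with −0.01 over all genes. Of the 79 well-expressed genes, 78 had a 95% interval inside ±0.32 on the log2 scale, which is a change of 1.25-fold. The bound is wider than the median change with RANKL itself, for which 44 of the 79 intervals also lay inside it. The estimates of the 79 genes had an SD of 0.047, against 0.106 for the 4226 other genes of at least 50 CPM. These others share that floor with the members and were not matched to them in level. The exception was Rps29, at 275, 277 and 277 CPM against 218, 250 and 271 CPM with RANKL. All 3 values were above those with RANKL, and the estimate was 0.16 (interval −0.00 to 0.33, adjusted p = 0.264).

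Rps6 as deposited was at 27.9, 27.6 and 25.4 CPM with BMS309403, below all RANKL libraries, with a log2 fold change of −0.24 ± 0.06 (adjusted p = 0.0145). The call was lost without RANKL replicate 1 or BMS309403 replicate 3. Summed with Rps6-ps4, the level was 909 ± 33.2 CPM against 920 ± 18.7 CPM, and the log2 fold change was −0.02 ± 0.04 (adjusted p = 0.862). Rpl10, at 1728, 1610 and 1612 CPM, was above all RANKL libraries and was not called (0.13 ± 0.05, adjusted p = 0.106), although it was called with no filter (0.14, adjusted p = 0.0387) and with the replicate number in the fit (0.13, adjusted p = 0.0393). Single libraries decided 2 further genes: Rpl41 was called higher without RANKL replicate 3 (0.19) and Rpl24 without BMS309403 replicate 3 (0.15). Rplp0 (0.02), Rpsa (−0.04), Rpl3 (−0.03), Rps4x (0.02), Rpl5 (−0.01), Rpl11 (0.04) and Rpl22l1 (−0.09) were not called, and their libraries overlapped with those of RANKL.

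The other lists had few calls with BMS309403, none of them higher, where 3.49% of all genes were higher and 3.74% lower. Called lower were 1 of 11 small nucleolar RNP genes, 2 of 40 factors of 60S assembly and 1 of 32 of 40S assembly. Estimates below 0 were found for 11, 36 and 24 of these, and for 6327 of all 12168 genes. Of 20 other initiation factors 17 were below 0, and of 17 genes of the mTORC1 and MYC list 8. This lean was not tested. Lower were the nucleolar and assembly genes Nop58 (−0.21), Nop2 (−0.18), Pa2g4 (−0.15) and Rrp12 (−0.26), the RNA polymerase I subunit gene Polr1a (−0.34), Pabpc1 (−0.16), Eef1g (−0.13), Eif4b (−0.11) and Myc (−0.42, adjusted p = 0.0111). Fau and Rack1 were not called.

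**Figure D5:**
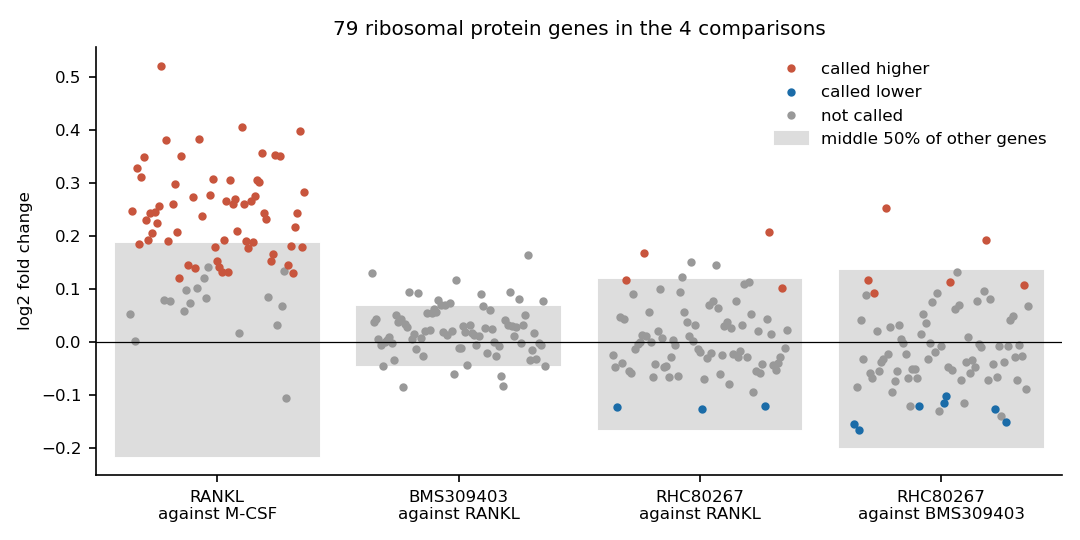
log2 fold change of 79 ribosomal protein genes of at least 50 CPM in the 4 comparisons. Points are red where called higher, blue where called lower and grey where not called. Grey boxes hold the middle 50% of 4226 other genes of at least 50 CPM, not matched in level. With RANKL against M-CSF the genes lie above 0 with the exception of Rps29, and in the other comparisons they lie on both sides of 0. The comparisons share libraries, so the columns are not independent.

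RHC80267 with RANKL was compared with the same RANKL libraries to ask what the diacylglycerol lipase inhibitor changes. This compound changed many genes, but few of the ribosomal protein genes. Of the 84, 5 were higher and 5 lower, where 26.9% of all genes were higher, 23% lower and 49.9% either. In 11 genes the libraries with RHC80267 lay above all RANKL libraries and in 7 below them, as in 31.1% and 26.8% of all genes. The median was −0.00 (0.02 over all genes), and 78 of the 79 well-expressed genes had intervals inside ±0.32, again with Rps29 as the exception. Their estimates had an SD of 0.069, against 0.336 for the 4226 other genes of at least 50 CPM, not matched in level. The balance between directions depended on the scaling: with total counts in place of TMM factors, which moved the median of all genes to 0.07, 15 genes were higher and 1 lower. Single libraries moved the counts too: 1 was higher without RANKL replicate 2, 9 without RANKL replicate 3, 2 without RHC80267 replicate 1 and 3 without RHC80267 replicate 3, and 2 were lower without RANKL replicate 1 or 3 or RHC80267 replicate 2 or 3.

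Rpl39l rose from expected counts of 7, 8 and 7 with RANKL to 19, 16 and 21 with RHC80267, a log2 fold change of 1.31 ± 0.40 (adjusted p = 0.00939). The groups did not overlap, and the call held in all 14 alternatives in which the gene was tested, although the level stayed near 1 CPM (1.02, 0.872 and 1.14 CPM). Rpl22l1 rose further, to 79.6, 75.3 and 80.2 CPM, without overlap with RANKL (0.17 ± 0.05, adjusted p = 0.00839), and lost its call without RANKL replicate 2. Rps29, at 282, 274 and 297 CPM, rose by 0.21 ± 0.08 (adjusted p = 0.0378), and Rpl14 by 0.12 (adjusted p = 0.0312). The calls of Rpl14 and Rps29 were lost without RANKL replicate 1 or 2 or RHC80267 replicate 1 or 3. Both were also lost with TMM factors computed without the members and with a stricter filter (3 libraries with 1 CPM or more). The call of Rps29 was lost with DESeq2 as well.

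The genes lower with RHC80267 changed little. Rpl6, a 60S protein, fell from 945, 932 and 947 CPM with RANKL to 894, 844 and 849 CPM (−0.13 ± 0.04, adjusted p = 0.0112), losing the call without RHC80267 replicate 2 and with total counts. Rpl11 fell to 442, 418 and 402 CPM (−0.12 ± 0.04, adjusted p = 0.0278), overlapping with RANKL, and Rps27l to 69.6, 69.3 and 68.8 CPM (−0.12 ± 0.05, adjusted p = 0.0446). Both lost the call without any of several libraries: RANKL replicate 1 or 3, RHC80267 replicate 2 or 3 and, for Rps27l, RHC80267 replicate 1. Both also lost it with total counts, and Rps27l with DESeq2. Rps6 fell by 0.14 as deposited (adjusted p = 0.0441), a call lost without RANKL replicate 1 or 3 or RHC80267 replicate 1 or 3, with DESeq2 and with total counts, while its sum with Rps6-ps4, at 917 ± 35.6 CPM, had a log2 fold change of −0.01 ± 0.04 (adjusted p = 0.921). Rps27rt had expected counts of 0, 9 and 0, a called fall that DESeq2 did not call. The fixed members Rplp0 (0.08), Rpsa (0.02), Rpl3 (−0.05), Rpl10 (−0.02), Rps4x (−0.05) and Rpl5 (−0.02) were not called. Rplp0 (adjusted p = 0.0544) was called higher by DESeq2 (adjusted p = 0.0305), by limma-voom (0.0339) and with total counts (0.00411).

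RHC80267 and BMS309403 were given at the same dose and time, and their groups were also compared with each other. How far each compound blocked its target is not known from these data. No structural relation between them is stated in the labels, and only this 1 pair was compared. Of the 84 genes, 7 were higher and 7 lower with RHC80267 than with BMS309403, where 30.1% of all genes were higher, 25.5% lower and 55.5% either. In 7 genes all libraries with RHC80267 were above those with BMS309403 and in 10 below them, as in 33.2% and 28.5% of all genes. The median was −0.03 (0.03 over all genes). With total counts, which moved the median of all genes to 0.10, 22 were higher and 0 lower, and with TMM factors computed without the members 4 were higher and 14 lower. Single libraries moved the counts as well: 3 were higher without BMS309403 replicate 2 or 3 or RHC80267 replicate 1, and 17 were lower without BMS309403 replicate 3, 11 without RHC80267 replicate 1 and 3 without RHC80267 replicate 3. Intervals lay inside ±0.32 for 78 of the 79 well-expressed genes, the exception being Rpl22l1.

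Rpl22l1, at 69.4, 61.8 and 66.0 CPM with BMS309403, was higher with RHC80267 by 0.25 ± 0.05 (adjusted p = 0.000226), and Rpl39l, from expected counts of 4, 2 and 7, by 2.03 ± 0.45 (adjusted p = 0.000605). The groups did not overlap in either gene, and both calls held in every alternative in which the gene was tested. Rps2, at the mRNA entry, was higher by 0.19 ± 0.06 (adjusted p = 0.00708), a call lost without BMS309403 replicate 2. Rpl11 (−0.17 ± 0.04, adjusted p = 0.00346), Rpl10 (−0.16 ± 0.05, adjusted p = 0.00813) and Rps27l (−0.15 ± 0.05, adjusted p = 0.0114) were lower, each without overlap, and lost the call with total counts alone. Others were Rpl8, Rpl14 and Rpl18, higher by 0.09 to 0.12, and Rps24, Rpl35a, Rpl6 and Rpl7, at −0.10 to −0.13. Without BMS309403 replicate 1 the call of Rpl14 was lost, without replicate 2 those of Rpl8, Rpl18, Rps24 and Rpl35a, and without replicate 3 those of Rpl8, Rpl14 and Rpl18. Without RHC80267 replicate 1 the calls of Rpl8, Rpl14, Rpl18 and Rpl35a were lost, without replicate 2 those of Rps24, Rpl6 and Rpl7, and without replicate 3 those of Rpl14, Rpl18, Rps24, Rpl35a, Rpl6 and Rpl7. Over the 15 alternatives Rpl18 kept its call in 4 and lost it with DESeq2 among others. Rpl14 kept its call in 7 and lost it with no filter and with TMM factors computed without the members, among others. Rpl8 also lost its call with no filter. The calls of Rps24, Rpl35a, Rpl6 and Rpl7 were lost with total counts. Rplp0 (0.06), Rpsa (0.07), Rpl3 (−0.02), Rps4x (−0.07), Rpl5 (−0.01) and Rps6 (0.10) were not called. With total counts Rplp0, Rpsa and Rps6 were called higher (adjusted p = 0.00123, 0.00336 and 0.0158). Rps4x was called lower without BMS309403 replicate 3 (adjusted p = 0.0343) and with only the groups compared (0.0421). Rps27 was not called either. It was called lower by DESeq2 (adjusted p = 0.0437), with no filter (0.0113) and with TMM factors computed without the members (0.0339), among others.

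Genes that build and serve the ribosome were also called with RHC80267, to be read beside the 26.9% of all genes that were higher and 23% that were lower. Against RANKL, 12 of 32 factors of 40S assembly were lower and 4 higher, with Heatr1, Wdr43 and Tsr1 at −0.38, −0.39 and −0.40. Of 40 factors of 60S assembly 8 were higher and 8 lower, with Gtpbp4 at −0.34 and Noc2l at 0.20. Of 13 subunits of initiation factor 3, 5 were lower and 1 higher, with Eif3e at −0.27 and Eif3m at −0.22, and the helicase pair Eif4a1 and Eif4a2 stood at −0.20 and 0.44. Eef2k, the kinase that inhibits elongation factor 2, rose by 0.46. Fau fell by 0.11 (adjusted p = 0.0207).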

How the data were processed

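The authors deposited 1 table with, per the file headers, a read count and a TPM value per gene and library, log2 fold changes and DESeq2 q-values. As 9.49% to 9.89% of the read counts in a library are not whole, the authors' counts were taken to be RSEM expected counts. Per the submitters' processing notes the tools were Bowtie2, RSEM 1.3.1 and DESeq2 1.4.5; annotation and filters were not given in the sources used here. The deposited table places genes on GRCm38 chromosomes. The authors' log2 fold changes and q-values were only counted, and the deposited TPM served for levels between genes. FPKM values were not used here.

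Expected counts were rounded, filtered with filterByExpr by group (12168 of 16570 genes tested) and scaled with TMM. A single quasi-likelihood fit in edgeR 4.0.16 (R 4.3.3) held the 12 libraries and a term for group, leaving 8 residual degrees of freedom. P-values were adjusted by Benjamini-Hochberg over all genes tested and called below 0.05. Tests were 2-sided, SE is the log2 fold change divided by the root of F, and the fit was tested on simulated data. Alternatives were DESeq2 1.42.0, limma-voom (limma 3.58.1), other scalings and filters, only the groups compared, the replicate number as a block, and each library left out. The replicates of a group differed by more than sampling noise. Named members were a fixed set of 8, the paralogues with their partners, and up to 5 highest and 5 lowest called members without overlap. From each other list up to 3 called genes with the smallest p were named. The members and lists were chosen with earlier results of these data known. The results of some members and listed genes are not reported here by name. Genes singled out beyond these, such as Rpl38 and Rps29, were chosen after their values were seen. Promoter windows are RefSeq's for GRCm38.p6, and coding sequences are from GENCODE vM21.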

Additional observations from a re-analysis of the deposited data

How the results depend on the processing

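Among the members named by the rule above, no direction of a called member reversed under any alternative run. The direction of the remaining called members was not checked in this way. The 64 genes higher with RANKL became 57 to 72 when single libraries were left out, and the 0 lower became 0 to 1 (1 without M-CSF replicate 1). For BMS309403 against RANKL, 1 was higher with no filter, and leaving out libraries gave 0 to 1 higher (1 without RANKL replicate 3 or BMS309403 replicate 3) and 0 to 1 lower; with genes that share reads summed 0 were lower. For RHC80267 against RANKL, total counts gave 15 higher and 1 lower, TMM factors without the members 2 higher, the stricter filter (3 libraries with 1 CPM or more) 1 higher, DESeq2 2 lower, only the groups compared 9 lower and summed genes 3 lower; leaving out libraries gave 1 to 9 higher and 2 to 6 lower. For RHC80267 against BMS309403, total counts gave 22 higher and 0 lower, TMM factors without the members 4 and 14, no filter 3 and 14, the stricter filter 3 and 14, only the groups compared 4 and 19, and DESeq2 and RLE factors 11 lower each; leaving out libraries gave 3 to 7 higher and 3 to 17 lower. The causes were not tested. Total counts moved the median of all genes to 0.03, −0.04, 0.07 and 0.10 in the order of the comparisons, and gave 274 genes higher and 715 lower for BMS309403 in place of 425 and 455, and 4812 and 2272 for RHC80267 against BMS309403 in place of 3660 and 3099.

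With the replicate number as a block, 64 members were higher and 0 lower with RANKL, 1 (Rpl10) and 1 for BMS309403 against RANKL, 5 and 5 for RHC80267 against RANKL, and 6 and 7 for RHC80267 against BMS309403, where the call of Rpl18 was lost. Over all genes, correlations of the deviations of same-numbered libraries ran from −0.06 to 0.09 in the 4 comparisons, and in none of these did every library correlate best with its own number. Over the members alone they were 0.33, 0.43 and 0.15 for M-CSF with RANKL and 0.52, 0.39 and 0.11 for BMS309403 with RHC80267, and below 0 in all pairs of RANKL with either inhibitor. The libraries were therefore taken to share only a number.

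Leaving out a library leaves 2 in its group. Genes near 1 CPM, such as Rpl39l and Rps27rt, rest on at most 21 expected counts per library.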
